A study of Mus musculus with 6 samples.

Results

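Sgk1 encodes serum- and glucocorticoid-regulated kinase 1, a kinase whose gene is a classical target of the glucocorticoid receptor. The 8 genes described here are Sgk1, its paralogs Sgk2 and Sgk3, and a set of substrates and sodium transport genes that SGK1 acts on or through: Nedd4l, Scnn1a, Atp1b1, Ndrg1 and Ndrg2. They were chosen by gene symbol, with earlier results of these data known, and all 8 were found among the 28154 genes of the deposited table. The series holds 6 RNA sequencing libraries of 4T1, an established mouse mammary carcinoma line that grows in syngeneic mice. Of these, 3 are labelled control and 3 come from cells given corticosterone, the principal rodent glucocorticoid. The labels name no other agent or genotype for either group, and they state no dose, vehicle or duration. Nor do they tell if each library had its own culture dish; the p-values therefore reflect only how these libraries vary, which may be technical.

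SGK kinases belong to the AGC family and need phosphorylation by mTORC2 and by PDK1, downstream of PI3-kinase, to become active, so the transcript level is only part of their control. In the kidney collecting duct, corticosteroids raise SGK1, which phosphorylates the ubiquitin ligase NEDD4-2 (gene Nedd4l). That ligase otherwise removes the epithelial sodium channel, of which Scnn1a encodes the alpha subunit, from the cell surface, while the sodium pump, of which Atp1b1 encodes a beta subunit, carries sodium out of the cell. NDRG1 and NDRG2 are direct substrates of SGK1, and their phosphorylation is a common readout of its activity. RNA counts report none of these phosphorylation steps.

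Library totals ran from 62175495 to 66249288 counts, and 17283 genes passed the filter on low counts, all 8 members among them. The labelled cell type was checked with 7 epithelial markers, which summed to between 4127 and 4929 CPM (counts scaled to library size with TMM, the trimmed mean of M values) in every library. Markers of endothelial cells summed to at most 1.85 CPM and those of adipocytes to at most 0.107 CPM. Those of fibroblasts summed to between 60.1 and 77.4 CPM, and those of leukocytes to between 183 and 263 CPM, with the T cell marker Cd3e under 1 CPM. No marker of any of these lists passed the test between groups in edgeR, and their part in the results was not tested. The known receptor targets Per1, Tsc22d3, Fkbp5 and Klf9 were all called higher, by a median of 1.42 on the log2 scale. Over all tested genes 1.35% were called higher. These 4 were listed with earlier results of these data known, so they are no independent check of the labels. Corticosterone replicate 2 stood closer to the controls than the other treated libraries on the first principal component (9.17, against 29.6 and 38.5), so counts of calls in members and lists are also given without it.

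Corticosterone raised 2 of the 8 genes, Sgk1 2.01-fold and its substrate gene Ndrg1 1.41-fold, and lowered none of them (edgeR quasi-likelihood test, Benjamini-Hochberg adjusted p under 0.05 over all 17283 genes). The paralogs Sgk2 and Sgk3, the ligase Nedd4l, the channel subunit Scnn1a, the pump subunit Atp1b1 and Ndrg2 did not pass. For comparison, 2.82% of all tested genes were called, 1.35% higher and 1.46% lower. The members were chosen with earlier results of these data known, so their count is no test against that share. No member was lower in edgeR at p under 0.05 before adjustment, nor was any called lower among the 7 that DESeq2 tested or the 6 that limma tested. Ndrg2 had no adjusted p in DESeq2, and limma tested neither Ndrg2 nor Scnn1a. Without corticosterone replicate 2, when 20.5% of 17862 tested genes were called in either direction, the count was still 2 members higher and 0 lower.

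**Figure D1:**
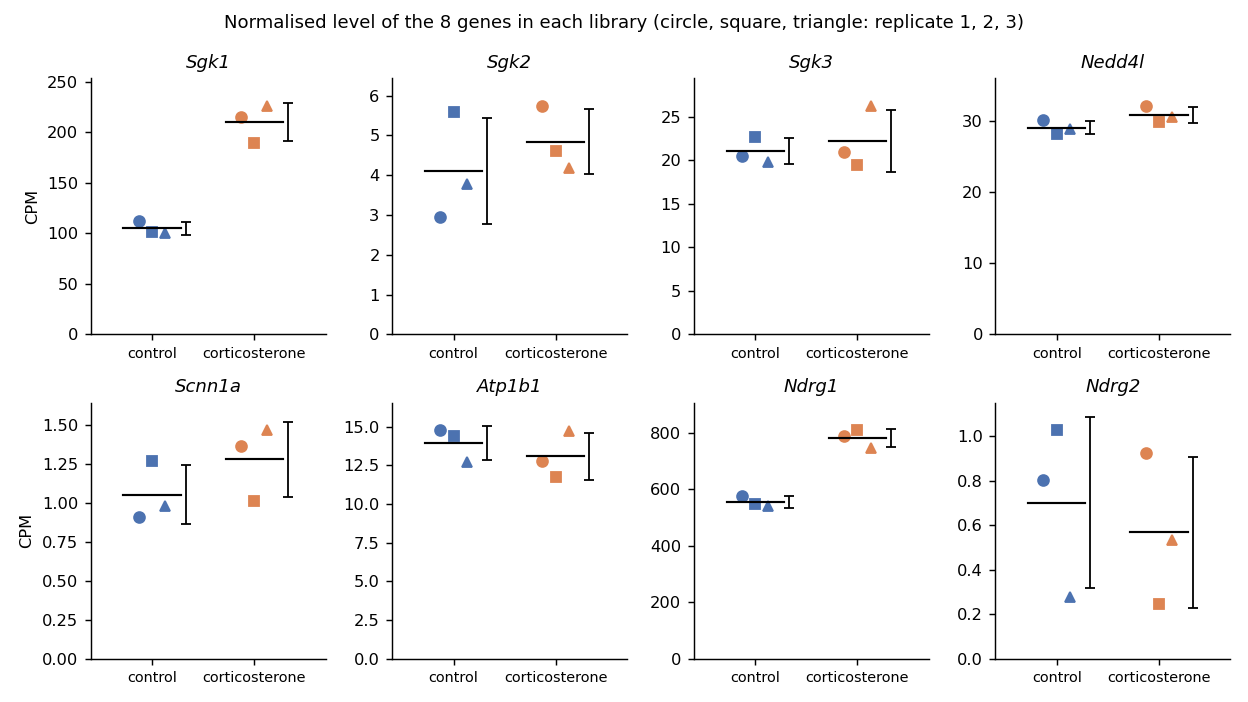
Level of each of the 8 genes in CPM (TMM-scaled counts, y axis from 0) in the 3 control (blue) and 3 corticosterone (orange) libraries, with the group mean as a line and its SD as the bar beside it. Sgk1 and Ndrg1 are the 2 genes whose groups do not overlap; Sgk1 lies between 100 and 113 CPM in controls and between 189 and 226 CPM after corticosterone.

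Sgk1 (ENSMUSG00000019970) lies on the plus strand of chromosome 10, from 21882184 to 21999893 in the deposited coordinates, and no annotated gene overlaps it in GENCODE M21 (mouse build GRCm38). The gene has 6 start sites in the RefSeq promoter table of GRCm38.p6. The glucocorticoid receptor binds DNA as a dimer, at palindromes whose arms resemble AGAACA and TGTTCT. Since Sgk1 rose, the windows around its start sites were searched for this pattern. Each window reaches from 250 bases before to 50 bases after a start site. One window held the full palindrome, GAACA, any 3 bases and TGTTC, a pattern that is its own reverse complement. The 250 bases before that start site and before the most downstream start site are shown because the first holds the palindrome, in capitals, and the second does not.
Sgk1 upstream of 21993890 (chr10:21993640-21993889, plus strand): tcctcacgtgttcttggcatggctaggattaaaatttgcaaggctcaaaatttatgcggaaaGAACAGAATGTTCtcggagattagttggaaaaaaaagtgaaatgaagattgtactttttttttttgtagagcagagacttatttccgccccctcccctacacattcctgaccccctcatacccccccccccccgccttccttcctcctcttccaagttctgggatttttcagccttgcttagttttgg
Sgk1 upstream of 21994666 (chr10:21994416-21994665, plus strand): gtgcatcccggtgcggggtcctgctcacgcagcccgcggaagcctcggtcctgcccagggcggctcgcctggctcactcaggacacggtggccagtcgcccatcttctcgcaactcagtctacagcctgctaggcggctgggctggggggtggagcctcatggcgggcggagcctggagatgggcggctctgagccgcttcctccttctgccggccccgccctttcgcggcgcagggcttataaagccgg

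The palindrome GAACAGAATGTTC occupies chr10:21993702-21993714, and its first base lies 188 bases before the start site at 21993890 and 964 bases before the one at 21994666. Neither printed stretch overlaps an annotated exon of Sgk1, although both lie inside the gene, downstream of its other start sites. Over all 32851 promoter windows of the table, 19 held this palindrome, which is 0.0578% of them. A looser pattern, GNACA, any 3 bases and TGTNC, was found in 156 windows (0.475%), and in Sgk1 only at the same place. A single arm, AGAACA or TGTTCT on either strand, was in 19.0% of windows and in 3 of the 6 Sgk1 windows, where 2 of the 5 matches are the arms of the palindrome. Of the other members, Atp1b1 (1 window) and Ndrg2 (3 windows) were matched in the table, and none of their windows held any of the 3 patterns. No windows were searched for the remaining members, among them Ndrg1, which also rose. Whether the patterns go with the change of a gene was therefore not tested. These matches describe letters in a window; receptor binding was not measured here.

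In controls, Sgk1 stood at 113, 102 and 100 CPM in replicates 1, 2 and 3, and after corticosterone at 215, 189 and 226 CPM. Every treated library was above every control library, and the lowest treated library was 1.68 times the highest control. Across all tested genes the treated libraries lay wholly above the controls for 10.6% of genes. In deposited FPKM (fragments scaled to gene length and library size) the mean went from 18.9 ± 1.29 to 38.1 ± 3.99 (SD, n = 3). The log2 fold change was 1.004 (SE 0.080, 95% interval 0.82 to 1.19; adjusted p = 0.00106 by edgeR's quasi-likelihood test). It ranked 40 of the 234 genes called higher when these were ordered by fold change. Leaving out each library in turn, the log2 fold change of Sgk1 lay between 0.95 and 1.07, and the call was kept each time.

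Sgk2 (ENSMUSG00000017868; plus strand of chromosome 2, 162987330 to 163014127), a paralog without the lipid-binding PX domain of SGK3, had 188 to 364 counts per library. Its levels were 2.96, 5.58 and 3.78 CPM in controls and 5.74, 4.61 and 4.18 CPM after corticosterone. Control replicate 2 was nearly as high as the highest treated library, and the groups overlapped. The log2 fold change of 0.24 did not pass (95% interval -0.30 to 0.78; adjusted p = 0.661 by edgeR's quasi-likelihood test), and the interval ends at a 1.71-fold rise, short of the 2.01-fold of Sgk1. That estimate depended on single libraries: it was 0.053 without control replicate 1 and 0.52 without control replicate 2, and neither passed.

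Sgk3 (ENSMUSG00000025915; plus strand of chromosome 1, 9798107 to 9900843), which is targeted to endosomes by its PX domain, was at 20.5, 22.7 and 19.8 CPM in controls. The treated libraries had 20.97, 19.4 and 26.2 CPM, so that replicate 3 alone lay above all controls and replicate 2 was the lowest of all 6. Its log2 fold change was 0.08 (95% interval -0.20 to 0.35; adjusted p = 0.784 by edgeR's quasi-likelihood test), and it was -0.05 without corticosterone replicate 3. The interval ends at a 1.28-fold rise. Gm6195, which overlaps Sgk3 on the opposite strand but none of its exons, had 15 to 24 counts, against at least 1266 for Sgk3. Within each library Sgk1 exceeded Sgk3 by 13.1 to 16.1 times in controls and by 25.2 to 30.0 times after corticosterone, in FPKM. Whether the response of Sgk1 differed from those of its paralogs was not tested.

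Sgk1 made up most of the SGK transcripts per length. Its share of the summed FPKM of the 3 kinases was 88.9 ± 2.18% in controls and 93.5 ± 0.245% after corticosterone (SD, n = 3), from 86.6% to 90.9% in control libraries and from 93.3% to 93.8% in treated ones. With the summed counts as library size, deposited FPKM values implied a length about 1.13 times the summed annotated exons of a gene. The labels do not state the library size or length that was used. Summed exons are 14.3 kb for Sgk3 but 4.90 kb for Sgk1 and 3.41 kb for Sgk2. The longest single transcript of Sgk3 is 3.78 kb. Per kilobase of the longest transcript, the share of Sgk1 was 83.0 ± 2.17% in controls and 90.1 ± 0.290% after corticosterone. On that scale Sgk3 was 2.93 to 5.56 times as high as Sgk2 in every library, whereas in FPKM the ratio ran from 0.874 to 1.65. The order of Sgk3 and Sgk2 depended on the length used, while Sgk1 led on both scales.

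Ndrg1 (ENSMUSG00000005125; minus strand of chromosome 15, 66929318 to 66969640) encodes a stress-responsive cytoplasmic protein of the alpha/beta hydrolase fold. It was the most abundant of the 8 genes, at 578, 547 and 540 CPM in controls. After corticosterone it stood at 788, 809 and 747 CPM, with the groups apart and the lowest treated library 1.29 times the highest control. Unlike Sgk1, whose lowest treated value was in replicate 2, Ndrg1 had its highest treated value there. In FPKM the mean went from 74.3 ± 2.97 to 105 ± 3.04 (SD, n = 3). The log2 fold change was 0.49 (SE 0.054, 95% interval 0.37 to 0.62; adjusted p = 0.00359 by edgeR's quasi-likelihood test). Ndrg1 ranked 131 of 234 among genes called higher by fold change, and 23 of 487 among all changed genes by mean FPKM. The mean rose by 227 CPM, against 105 CPM for Sgk1. Leaving out each library gave log2 fold changes of 0.47 to 0.53, and the highest adjusted p was 0.0497, without control replicate 2. Ndrg1 overlaps exons of Gm2895 on the opposite strand, and the labels do not state whether counting used strand. That gene had 25 to 62 counts per library, against at least 35225 for Ndrg1.

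Ndrg2 (ENSMUSG00000004558; minus strand of chromosome 14, 51905271 to 51914158), the other substrate gene of the NDRG family among the members, was nearly silent, with 16 to 67 counts per library. Its levels were 0.803, 1.03 and 0.276 CPM in controls and 0.923, 0.245 and 0.535 CPM after corticosterone. The groups overlapped almost fully, and the highest library was 4.19 times the lowest. The coefficient of variation was 54.9% in controls and 59.9% in treated libraries, against 14.9% and 16.6% that counting alone gives at these depths. The log2 fold change of -0.31 did not pass, and its 95% interval runs from -1.63 to 1.01 (adjusted p = 0.831 by edgeR's quasi-likelihood test). That interval includes the log2 fold change of Sgk1.

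Among all 4 NDRG genes, Ndrg1 held 93.9 ± 0.264% of the summed FPKM in controls and 95.02 ± 0.122% after corticosterone (SD, n = 3). Ndrg3 was at 2.67 FPKM in both groups (log2 fold change -0.0057, not passed). Ndrg4, chosen after its value was seen, was at 12.0, 11.4 and 10.4 CPM in controls and 15.1, 15.2 and 14.4 CPM after corticosterone. Its groups did not overlap, but its log2 fold change of 0.40 did not pass (adjusted p = 0.0545 by edgeR's quasi-likelihood test).

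**Figure D2:**
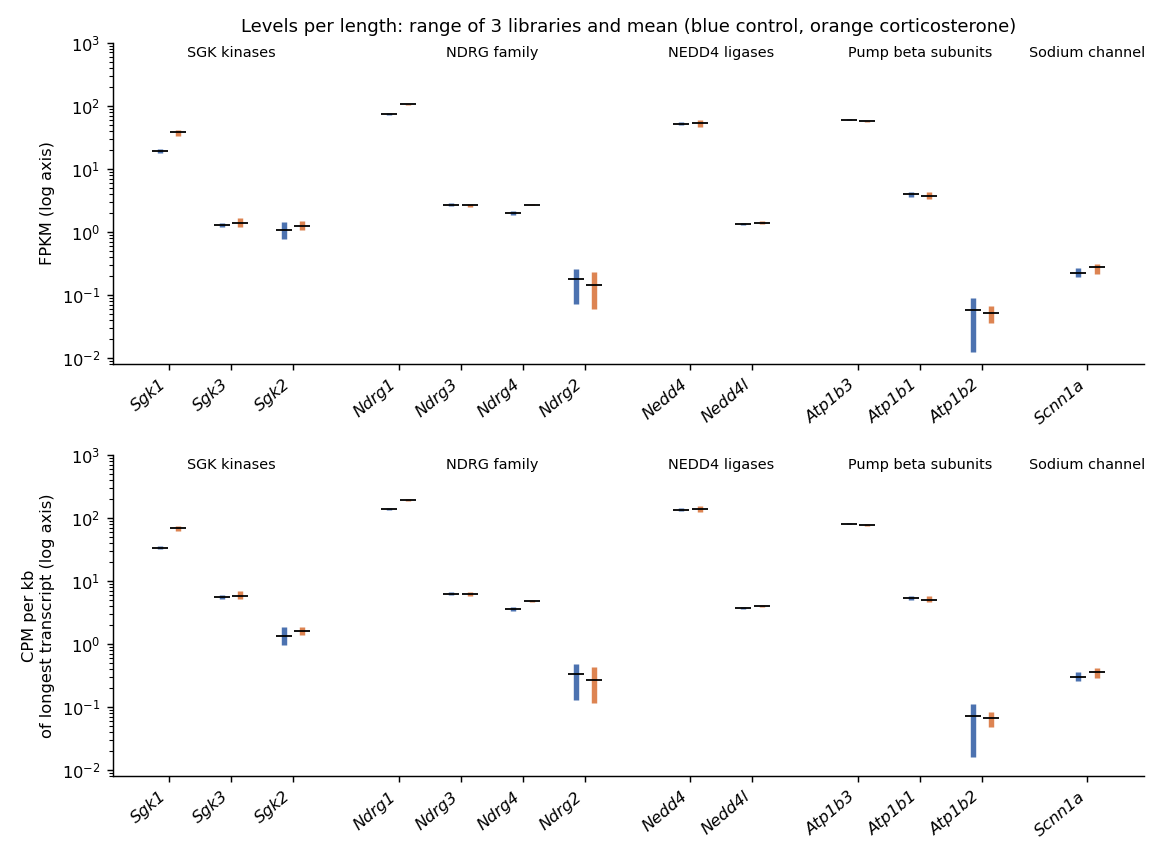
Levels per length of the members and their family genes on log axes, as deposited FPKM (top) and as CPM per kilobase of the longest annotated transcript (bottom). Bars span the 3 libraries of a group (blue control, orange corticosterone) and ticks mark the means; Sgk1, Ndrg1 and Nedd4 lead their families and Atp1b3 the pump beta subunits on both scales, and the gap between Sgk3 and Sgk2 opens only in the lower panel.

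Nedd4l (ENSMUSG00000024589), the ligase gene, varied least of the 8. It was at 30.2, 28.3 and 28.9 CPM in controls and at 32.2, 29.9 and 30.6 CPM after corticosterone, with 1847 to 2024 counts per library. The lowest treated library lay just below the highest control, so the groups touched. Its log2 fold change of 0.086 did not pass (95% interval -0.071 to 0.24; adjusted p = 0.576 by edgeR's quasi-likelihood test), and the interval ends at a 1.18-fold rise. Its close relative Nedd4 was 34.8 to 42.1 times as abundant in FPKM in the 6 libraries, at 51.7 ± 3.03 in controls and 54.1 ± 6.62 after corticosterone, and did not pass (log2 fold change 0.058). Nedd4l thus supplied 2.49 ± 0.0899% of the FPKM of this pair in controls and 2.56 ± 0.236% after corticosterone (SD, n = 3). For these 2 genes FPKM implied a length of 1.30 (Nedd4) and 1.24 (Nedd4l) times the summed exons, above the median of 1.13. Per kilobase of the longest transcript, Nedd4 was 31.9 to 38.6 times as abundant. Exons of Nedd4l overlap A330084C13Rik on the opposite strand, which had 7 to 33 counts.

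Scnn1a (ENSMUSG00000030340; plus strand of chromosome 6, 125320659 to 125344933) was close to the limit of testing, with 58 to 96 counts per library. Its levels were 0.913, 1.27 and 0.981 CPM in controls and 1.37, 1.01 and 1.47 CPM after corticosterone. Treated replicates 1 and 3 were above all controls, and replicate 2 lay among them. Its log2 fold change of 0.28 did not pass (95% interval -0.28 to 0.84; adjusted p = 0.610 by edgeR's quasi-likelihood test). The other channel subunits did not pass the filter on low counts and were not tested. Scnn1b, the beta subunit, had 5 counts in control replicate 3 and in corticosterone replicate 1 and 0 in the other libraries. Scnn1g, the gamma subunit, had 4 counts in corticosterone replicate 1 and 0 elsewhere. A count of 0 allows up to 3 counts, or 0.0459 to 0.0477 CPM, for counting error only. The channel is usually built from all 3 subunits, and transcripts of the beta and gamma subunits were thus at or near 0 in 4T1 cells of both groups.

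Atp1b1 (ENSMUSG00000026576; minus strand of chromosome 1, 164437109 to 164458355) encodes the sodium pump subunit that carries the alpha subunit to the membrane in many epithelia. It was at 14.8, 14.4 and 12.7 CPM in controls and 12.8, 11.8 and 14.7 CPM after corticosterone, and the groups overlapped. A log2 fold change of -0.094 did not pass (95% interval -0.35 to 0.16; adjusted p = 0.719 by edgeR's quasi-likelihood test). Its exons overlap those of Nme7 on the opposite strand, which had 1632 to 1912 counts against at least 767 for Atp1b1, so the counts of Atp1b1 are uncertain. Most beta subunit transcript was Atp1b3, at 59.6 ± 1.89 FPKM in controls against 4.00 ± 0.332 for Atp1b1 (SD, n = 3). Atp1b3 exceeded Atp1b1 by 13.04 to 17.5 times in the 6 libraries.

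**Figure D3:**
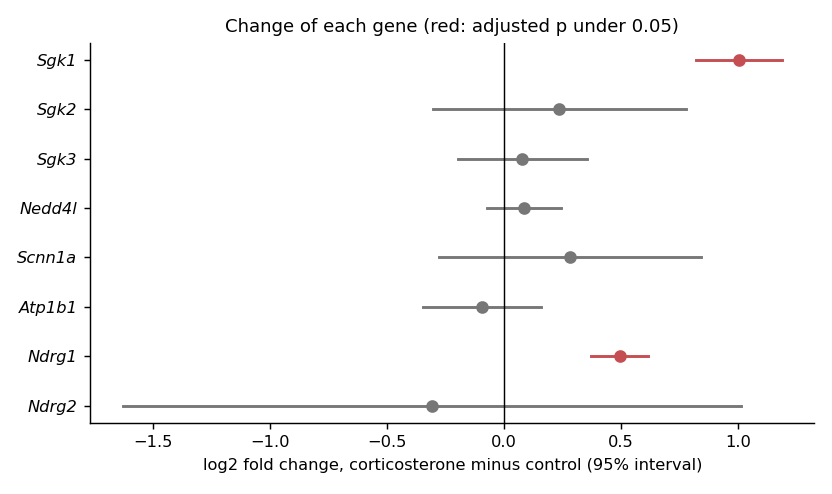
Log2 fold change of each gene, corticosterone minus control, with its 95% interval from the edgeR fit (x axis; red where the adjusted p is under 0.05). The intervals of Sgk1 (0.82 to 1.19) and Ndrg1 (0.37 to 0.62) lie above 0, and that of Ndrg2 (-1.63 to 1.01) is the widest.

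In order of control FPKM the members ran Ndrg1, Sgk1, Atp1b1, Nedd4l, Sgk3, Sgk2, Scnn1a and Ndrg2, and the order of the means was the same after corticosterone. Neighbours overlapped in both groups for Nedd4l with Sgk3, Sgk3 with Sgk2, and Scnn1a with Ndrg2, so those pairs did not differ beyond their spread. Ndrg1 exceeded Sgk1 by 3.81 to 4.01 times in control libraries and by 2.46 to 3.18 times in treated ones. Per kilobase of the longest transcript Sgk3 moved up beside Atp1b1, and the leading places of Ndrg1 and Sgk1 stayed.

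The genes around this pathway were described by lists chosen with earlier results of these data known. Of 80 pathway genes other than the members, 77 were in the table and 70 were tested. In edgeR 2 of those rose and 0 fell, where 2.82% of all tested genes were called in either direction and 1.35% were called higher, so the count is near the background. The other 68 did not pass. The median log2 fold change of the 70 was 0.094, against 9.6e-05 over all tested genes. At an unadjusted p under 0.05 in edgeR, 10 were higher and 5 lower. DESeq2 called 5 of 62 higher and 0 lower, and limma called 1 of 56 higher and 0 lower. Over all genes DESeq2 called 1131 of 13955 and limma 504 of 11836, in either direction. The count rests on the libraries used: without corticosterone replicate 2, 23 of 71 rose and 8 fell. Over all tested genes 20.5% were then called in either direction, and 51.3% of those calls were higher. In that setting the pathway count was above the background, and the difference was not tested.

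The gene that rose in the list of WNK kinases and sodium cotransport was Oxsr1. It encodes OSR1, the kinase by which WNK kinases activate sodium and chloride cotransporters. Its level was 128, 116 and 119 CPM in controls and 178, 156 and 193 CPM after corticosterone, with the groups apart. In log2 terms the fold change was 0.54 (95% interval 0.35 to 0.73; adjusted p = 0.0135 by edgeR's quasi-likelihood test). The call was lost without control replicates 1, 2 or 3 (adjusted p = 0.0528, 0.102 and 0.0789) and without corticosterone replicate 1 (adjusted p = 0.0854). The other 11 tested genes of the list did not pass in edgeR, and its median log2 fold change was 0.17. DESeq2 called 2 of 9 higher and limma 1 of 8, against 1131 of 13955 and 504 of 11836 over all genes, in either direction. With corticosterone replicate 2 left out, 4 of 13 were called higher in edgeR and 1 lower. Over all tested genes 20.5% were then called, in either direction.

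Irs2, an adaptor that links insulin receptors to PI3-kinase, was the gene that rose among 17 inputs that activate SGK kinases. It was at 75.1, 69.0 and 67.3 CPM in controls and at 93.3, 81.8 and 94.5 CPM after corticosterone. Its log2 fold change was 0.35 with an adjusted p close to the threshold (adjusted p = 0.0497 by edgeR's quasi-likelihood test). Leaving out any library other than corticosterone replicate 2 ended the call, with adjusted p up to 0.240 by edgeR, and exons of 9530052E02Rik overlap Irs2 on the opposite strand. The list median was 0.13, with 14 genes above 0 and 3 below. DESeq2 called 1 of 16 higher and limma 0 of 14, against 1131 of 13955 and 504 of 11836 over all genes, in either direction. With corticosterone replicate 2 left out, 7 of 17 were called higher in edgeR and 1 lower. Over all tested genes 20.5% were then called, in either direction. The upstream kinase Pdpk1 (PDK1) had a log2 fold change of 0.17 and the mTORC2 subunit Rictor one of 0.36, and neither passed; both were chosen after their values were seen.

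Of 17 AGC kinases Sgk1 rose and 16 did not pass in edgeR (median 0.12). DESeq2 and limma each called 1 of 17 higher, against 1131 of 13955 and 504 of 11836 over all genes, in either direction. With corticosterone replicate 2 left out, 6 of 17 were called higher in edgeR and 2 lower. Over all tested genes 20.5% were then called, in either direction. These shares over all genes also apply to the other lists of this paragraph. Of 10 NDRG genes and SGK1 substrates Ndrg1 rose and 9 did not pass in edgeR (median 0.083). DESeq2 called 3 of 9 higher and limma 1 of 9. With corticosterone replicate 2 left out, 4 of 10 were called higher in edgeR and 0 lower. Of 11 tested channel and pump genes none passed in edgeR, with 2 lower at an unadjusted p under 0.05. DESeq2 called 0 of 7 and limma 0 of 5. With corticosterone replicate 2 left out, 0 of 11 were called higher in edgeR and 3 lower. Their median log2 fold change was -0.14, with 9 below 0. Of 11 tested NEDD4 family genes none passed in edgeR, with 2 higher at an unadjusted p under 0.05. DESeq2 called 0 of 11 and limma 0 of 9. With corticosterone replicate 2 left out, 4 of 11 were called higher in edgeR and 1 lower. The ligase Smurf1 (0.15) and the adaptor Ndfip2 (0.17) had the lowest p in the NEDD4 list.

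**Figure D4:**
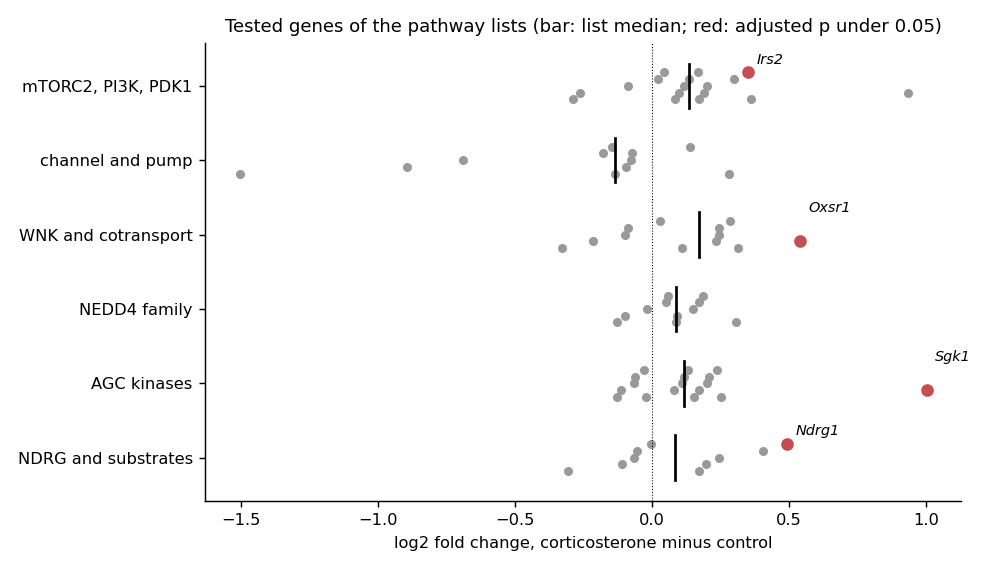
Log2 fold change, corticosterone minus control (x axis), of every tested gene in the 6 pathway lists, members included, with the list median as a bar and genes with an adjusted p under 0.05 in red. Sgk1 (1.004), Oxsr1 (0.54), Ndrg1 (0.49) and Irs2 (0.35) are the called genes.

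Both corticosteroid receptors and the 11-beta hydroxysteroid dehydrogenases were detected, and none of these 4 genes passed in edgeR (1 lower at an unadjusted p under 0.05). DESeq2 called 0 of 3 and limma 0 of 1. With corticosterone replicate 2 left out, 1 of 4 was called higher in edgeR and 0 lower. Over all tested genes 20.5% were then called, in either direction. Nr3c1, the glucocorticoid receptor, was at 41.3 ± 4.07 CPM in controls and 49.6 ± 9.73 after corticosterone (SD, n = 3), and Nr3c2, the mineralocorticoid receptor, at 0.599 ± 0.0871 CPM in controls. Hsd11b2, which inactivates corticosterone in aldosterone target cells, was at 1.18, 1.59 and 1.30 CPM in controls and at 1.03, 0.736 and 0.979 CPM after corticosterone. All treated libraries lay below the controls, as they did for 11.6% of all tested genes, but the log2 fold change of -0.57 did not pass (adjusted p = 0.276 by edgeR's quasi-likelihood test). Hsd11b1, which regenerates corticosterone, had a log2 fold change of 0.081. Nr3c2 overlaps exons of a gene on the opposite strand.

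The genes whose levels followed Sgk1 most closely over the 6 libraries were Zfp36l2, Adam12, Dhrs9, Abcb1b and Slc1a4. They were taken from 7438 tested genes with a mean of at least 5 FPKM, by the Pearson correlation of log2 CPM, which was 0.9997 for Zfp36l2 and 0.996 for Slc1a4. All 5 rose, with log2 fold changes of 0.67 for Zfp36l2, an RNA-binding protein that promotes mRNA decay, 1.03 for the metalloprotease Adam12, 1.697 for the short-chain dehydrogenase Dhrs9, 0.78 for the efflux transporter Abcb1b and 0.55 for the neutral amino acid transporter Slc1a4. The 6 points fall in 2 groups, so these correlations include the group difference, and 441 of the 7438 genes had a correlation above 0.9. Zfp36l2 and Abcb1b overlap exons of genes on the opposite strand. The call of Slc1a4 was lost without control replicate 2 (adjusted p = 0.0636 by edgeR's quasi-likelihood test).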

How the data were processed

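The counts, per the file headers, are raw integer counts per gene and library, as deposited. The authors placed FPKM columns beside them. The labels state no aligner, counter or strand setting. The submitters' processing notes name GRCh38, but all identifiers are mouse ones, 28086 of 28154 found in GENCODE M21. Over 11973 genes with at least 100 counts in every library, FPKM implied a length 1.13 times (median) the summed exon length of that annotation. The summed counts served as library size in that estimate. Groups came from the treatment field and replicate numbers from the titles. Same-numbered libraries did not deviate together (Pearson r of 0.011, 0.038 and -0.088), so they were not paired. No 2 libraries of the same group agreed within sampling noise (chi-square per gene of at least 9.00).

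Counts were scaled by TMM, filtered with filterByExpr (minimum count 10, total 15) and tested with edgeR 4.0.16 (R 4.3.3), group as the only factor, Benjamini-Hochberg over all tested genes. SE is the log2 fold change over the root of F. Tested on simulated data with 16870 genes, it recovered 48% of changes of 1.5-fold, 69% of those of 2-fold, and made 11 false calls. Alternatives were DESeq2 1.42.0, other scalings and filters, limma 3.58.1 on log2(FPKM + 1, 0.5 or 0.1), the replicate block, other thresholds and each library left out. The length of the longest transcript was added after seeing the data. Members and lists were chosen with earlier results of these data known. Genes named were the members, called genes of each list (up to 4 by lowest p, otherwise 2), receptors, induced targets, and the 5 genes most like Sgk1; relatives of the members and genes overlapping them are given beside them, outside that rule and with earlier results known. Some genes of the pathway and marker lists are not reported here by name.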

Additional observations from a re-analysis of the deposited data

How the results depend on the processing

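Of 111 log2 fold changes of members under 15 alternatives of scaling, filter, tool and libraries, 108 kept their direction and side of the threshold. The other 3 changed sign without passing. Ndrg2 ran from -0.84 to 0.073 over the libraries left out, above 0 without control replicate 2 (0.073) or corticosterone replicate 2 (0.053). Sgk3 ran from -0.055, without corticosterone replicate 3, to 0.17. Sgk1 ranged from 0.95 to 1.07 and Ndrg1 from 0.47 to 0.53, and in each of 17 alternatives 2 members were higher and 0 lower. With the replicate block, log2 fold changes were 1.002 for Sgk1 and 0.49 for Ndrg1, and 237 genes were called.

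Calls over all genes were 487, against 1131 with DESeq2, 211 with no low count filter, 144 at an adjusted p under 0.01 and 889 under 0.1. Leaving out 1 library gave 88 (control replicate 2) to 3670 (corticosterone replicate 2). The 2 pathway genes called higher became 1 with DESeq2 size factors, with each limma fit and with the block, 5 with DESeq2, 0 with no low count filter or at 0.01, 4 at 0.1, and 0 to 23 leaving out 1 library; those lower were 0 to 8. The cause was not tested. Calls of Oxsr1 and Irs2 were lost with no low count filter. DESeq2 gave no adjusted p for Ndrg2, limma no value for Scnn1a and Ndrg2, and a mean FPKM of at least 1 left out the same genes. Ndrg2 and Scnn1a had 16 to 96 counts per library. Both varied more between libraries than counting alone gives, as all the other members did.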
